A study of Penicillium oxalicum with 15 samples.

Results

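The gene creA (PDE_03168) of the filamentous fungus Penicillium oxalicum was followed across all 15 libraries of the study. It is 1 of the 9976 gene identifiers of the deposited table and was picked by that identifier, with no measured value in the rule. RNA came from mycelia of 3 strains. The strain gClrBID, labelled as overexpressing a ClrB transcription factor with an internal mutation, was sampled on cellulose and on glucose. A creA deletion mutant was sampled on cellulose, and the reference strain M12, the control of the study, on cellulose and on glucose. Every culture had 22 h in Vogel's medium on 2% glucose and a further 4 h at 30 °C and 200 rpm on 2% (w/v) cellulose or 2% glucose. Each of the 5 groups had 3 libraries. The series text calls them biological triplicates and does not describe the cultures, so a p-value here reflects how far the libraries of a group differ, which may be technical. The promoter that drives the ClrB mutant, the number of clones per altered strain and the genotype of M12 beyond its name are not stated in the sources used here. The creA deletion on glucose was not analysed here.

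CreA is a repressor with zinc fingers of the C2H2 class and is related to Mig1 of yeast. In filamentous fungi it binds GC-rich sites in promoters and keeps genes for the use of poor carbon sources low while glucose is present, a process known as carbon catabolite repression. Its targets in Penicillium and related moulds include genes for cellulases, xylanases and amylases, and genes for activators of these enzymes such as ClrB, XlnR and AmyR. How active the protein is also depends on steps after transcription, which RNA levels do not show.

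The libraries held 10129672 to 18361206 fragments, worked back from the deposited FPKM values (fragments per kilobase of gene model and scaled to the counted fragments of the library). With gene models taken as multiples of 3 bases, the reading gave creA a model of 1254 bases. In every pair of replicates the fragments differed by more than counting error, with squared differences 3.31 to 23.0 times as large as counting alone gives. The widest pair was replicates 1 and 3 of gClrBID on cellulose. The tag of creA was checked in the deletion strain. There it had 2, 1 and 0 fragments in replicates 1, 2 and 3, or 0.105, 0.0542 and 0 FPKM. In M12 on cellulose it had 6951, 7821 and 9431 fragments, or 407, 423 and 472 FPKM. Per fragment sequenced, the creA signal of the deletion strain was 0.0114% of that of M12, with an exact 95% interval of 0.00234% to 0.0332% that covers counting error only. The lowest library of any other group held 1394 creA fragments.

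creA RNA was present in every library of the strains that carry the gene, and its level depended on both carbon source and strain. In gClrBID on cellulose it stood at 277, 329 and 311 FPKM, with a mean of 306 ± 26.3 (SD, n = 3). In gClrBID on glucose the libraries gave 224, 213 and 217 FPKM, a mean of 218 ± 5.31 (SD, n = 3). M12 on cellulose averaged 434 ± 33.9 FPKM, the highest of the 5 groups. M12 on glucose gave 71.9, 68.7 and 73.3 FPKM, a mean of 71.3 ± 2.37 (SD, n = 3) and the lowest group with an intact gene. From low to high the order was M12 on glucose, gClrBID on glucose, gClrBID on cellulose and M12 on cellulose, and no library of one group fell among those of its neighbour in that order. FPKM is a share of the RNA of a library, so less creA RNA per cell and more RNA from other genes cannot be told apart.

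**Figure D1:**
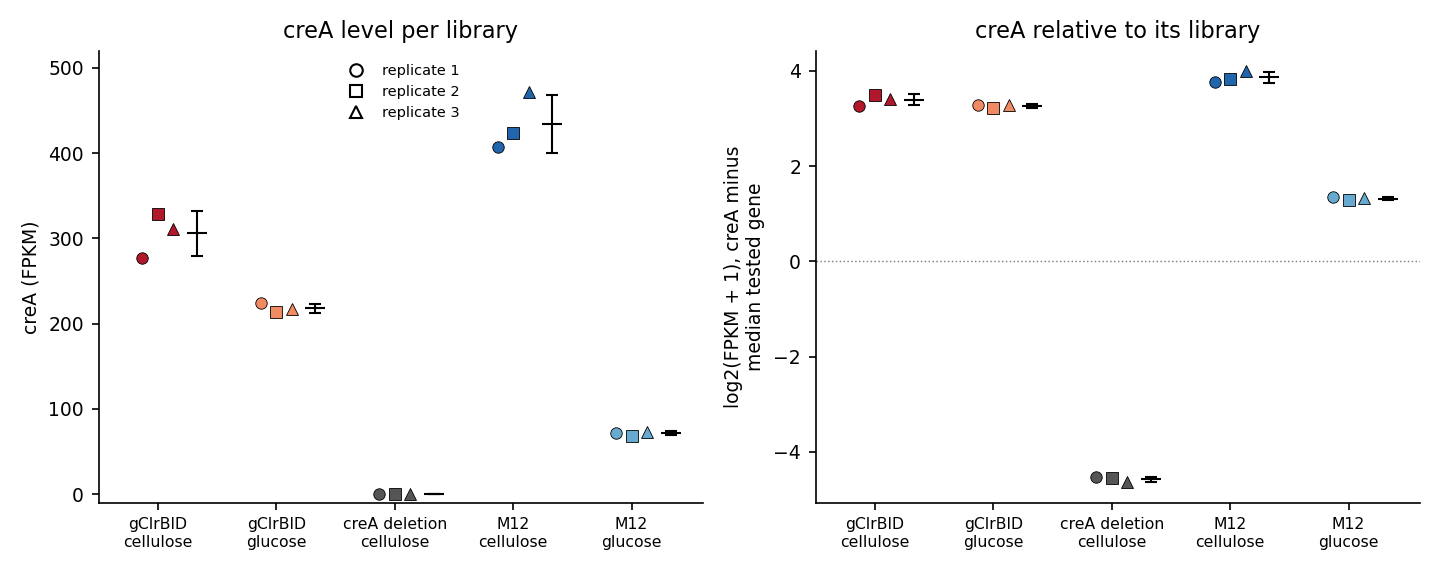
creA in each of the 15 libraries, as FPKM (left) and as log2(FPKM + 1) minus the median tested gene of the same library (right). Symbols are replicates, and bars give the mean ± SD of 3 libraries. The gClrBID groups lie between M12 on cellulose (434 FPKM) and M12 on glucose (71.3 FPKM), and on the right the gClrBID libraries on cellulose and on glucose overlap.

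The spread between replicates was wider on cellulose. The coefficient of variation of creA was 8.59% in gClrBID and 7.81% in M12 on cellulose, where counting error alone gives 1.35% and 1.11%. On glucose it was 2.44% in gClrBID and 3.33% in M12, close to the 1.73% and 2.58% expected from counting. Pooled over these 4 groups the SD of creA on the log2 scale was 0.09, equal to the median of the 6813 genes with a mean of at least 10 FPKM. creA was among the more abundant transcripts. In gClrBID 485 to 560 genes of the table stood above it on cellulose and 705 to 743 on glucose. In M12 374 to 430 genes stood above it on cellulose and 2079 to 2163 on glucose.

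The response of creA to the carbon source was measured first in the reference strain. creA rose 6.01-fold on cellulose relative to glucose in M12, a log2 fold change of 2.59 ± 0.07 (SE, n = 3 per group, limma adjusted p = 3.3e-15). Of the 8765 genes tested in this comparison 41.3% were called higher, with an adjusted p under 0.05, so a call alone does not set creA apart. Its size was less common: 652 genes, 7.44% of those tested, had a larger rise. Over 10 other settings of the fit the log2 fold change lay between 2.54 and 2.71.

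The effect of the ClrB mutant was then measured without cellulose. On glucose creA rose 3.03-fold in gClrBID relative to M12, a log2 fold change of 1.60 ± 0.07 (SE, n = 3 per group, limma adjusted p = 3.7e-12). All 3 gClrBID libraries were above all 3 M12 libraries, by 147 FPKM on average. Here 17.0% of the tested genes were called higher and 54.7% lower, and 246 genes (2.81%) rose more than creA. With median-of-ratios scaling, under which the tested genes had a median log2 fold change of 0.00 in place of -0.26, the calls were 2979 higher and 2912 lower, against 1493 and 4797 on the values as deposited. creA then rose by 1.90 ± 0.07 (SE).

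On cellulose the strains stood the other way round. creA fell to 306 FPKM in gClrBID, against 434 FPKM in M12, 0.705 times as high on the fitted scale. The log2 fold change was -0.50 ± 0.07 (SE, n = 3 per group, limma adjusted p = 9.3e-06), and the highest gClrBID library (329 FPKM) was below the lowest M12 library (407 FPKM). Of the tested genes 32.1% were called lower in this comparison, and 1375 (15.7%) fell further than creA. The clrB tag was also lower in the libraries labelled gClrBID than in M12 on cellulose, so a higher clrB level, which the label gives for this strain, was not seen in them. The fall was called under all 10 other settings, with values of -0.51 to -0.44, and in each of 15 fits that left out 1 library, with values of -0.56 to -0.44.

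An interaction term asked whether the strain effect on creA depended on the carbon source. The effect of gClrBID on cellulose minus that on glucose was -2.10 ± 0.09 log2 units (SE, n = 3 per group, limma adjusted p = 2.2e-11). An interaction of this sign was called for 20.1% of the tested genes, and 193 genes (2.20%) had a more negative one. Median-of-ratios scaling changed the interaction calls over all genes to 2911 more positive and 2611 more negative, against 4208 and 1764 as deposited, and gave -2.35 ± 0.09 (SE) for creA. On the values as deposited 457 genes, 5.21% of those tested, were called higher in gClrBID on glucose and lower on cellulose, as creA was. Genes with this pattern were not counted under the other scalings.

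The same term also compares the carbon responses of creA in gClrBID and in M12. Within gClrBID creA was 1.40-fold higher on cellulose than on glucose, a log2 fold change of 0.48 ± 0.07 (SE, n = 3 per group, limma adjusted p = 4.9e-06). This value depended on the scaling. It was 0.28 ± 0.07 (adjusted p = 0.00098) with median-of-ratios scaling and 0.13 ± 0.06 (adjusted p = 0.068) when each library was centred on its median tested gene, and the adjusted p lay between 3.6e-07 and 0.068 over all settings. Relative to that median, creA stood at 3.27, 3.50 and 3.40 log2 units in the gClrBID libraries on cellulose and at 3.29, 3.21 and 3.28 on glucose, which overlap. In this comparison 49.4% of the tested genes were called higher and 34.3% lower, and centring on the median turned the calls to 3264 higher and 4134 lower, against 4332 and 3003.

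Across strain and carbon source together, the gClrBID glucose libraries were below those of M12 on cellulose, by a creA log2 fold change of -0.99 ± 0.07 (SE, n = 3 per group, limma adjusted p = 5.8e-10). Centred on the library median the value was -0.60 ± 0.06. The background of genes called lower in this comparison was 51.6%, and centring changed the calls to 4091 higher and 3471 lower, against 3034 and 4526. creA was higher in gClrBID on cellulose than in M12 on glucose by 2.08 ± 0.07 (SE, limma adjusted p = 5.4e-14), where 38.8% of genes were called higher. As single values, each of these 3-against-3 comparisons of FPKM gave an exact two-sided permutation p of 0.1, the smallest p that 3 against 3 allows.

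**Figure D2:**
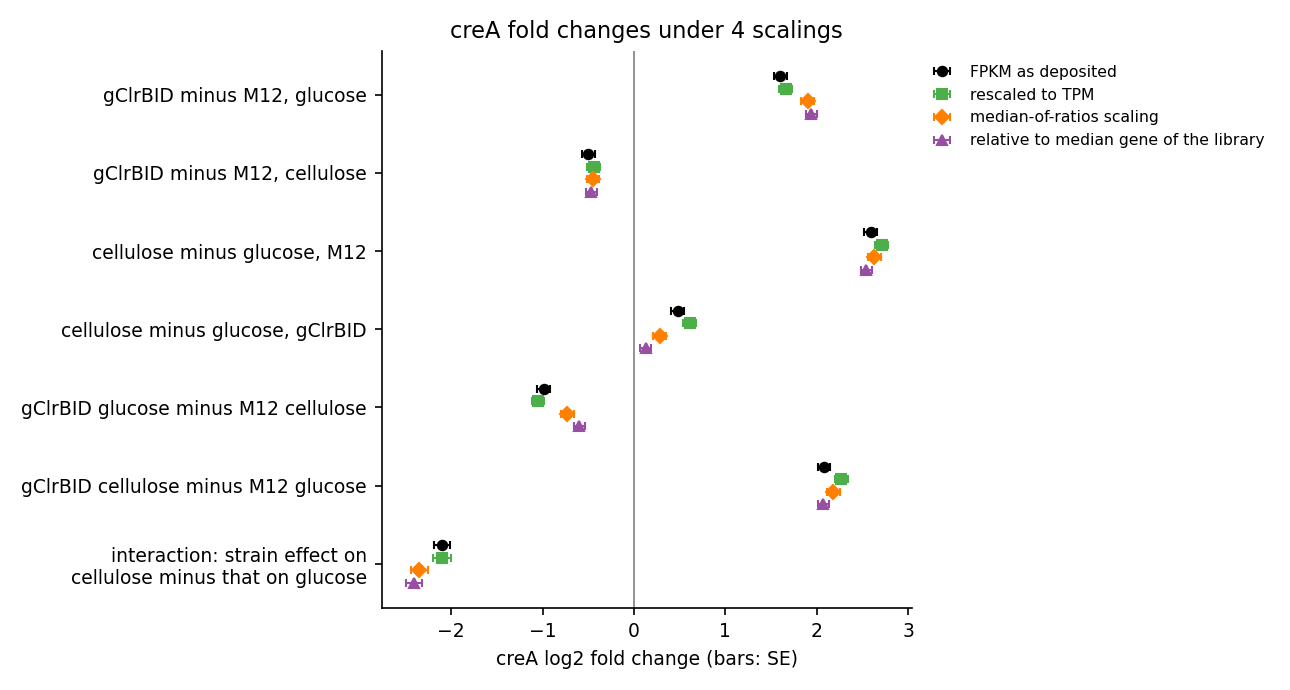
creA log2 fold change (x axis, bars are SE) in 6 comparisons and the interaction, on the values as deposited and under 3 other scalings. The direction was the same under all 4, and the carbon response within gClrBID ran from 0.13 to 0.61.

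creA was set beside 4 other regulator genes within each library, as ratios of FPKM, which no library scaling moves. clrB encodes an activator of cellulase genes and is the gene that the labels give as overexpressed in gClrBID. On cellulose it stood at 73.7 ± 16.5 FPKM in gClrBID against 153 ± 6.43 in M12, and on glucose at 469 ± 16.4 in gClrBID against 10.1 ± 0.345 in M12 (SD, n = 3 each). The levels thus went against the label on cellulose and with it on glucose. creA was 3.51 to 4.95 times as abundant as clrB in gClrBID on cellulose and 0.438 to 0.481 times on glucose. In M12 it was 2.54 to 3.15 times as abundant on cellulose and 6.89 to 7.34 times on glucose. The gClrBID glucose libraries were the only ones of the 12 with creA in which clrB stood above creA. The levels of the ClrB mutant and of the native clrB gene are not separated in the table.

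xlnR encodes an activator of xylanase genes. The ratio of creA to xlnR was 5.27 to 6.22 in gClrBID on cellulose and 12.4 to 13.1 on glucose. In M12 it was 9.70 to 11.4 on cellulose and 5.38 to 5.84 on glucose. The carbon source thus moved the ratio in opposite directions in the 2 strains, and xlnR itself had an interaction of -0.05 ± 0.07 (limma adjusted p = 0.49) on the values as deposited and of -0.28 ± 0.07 (limma adjusted p = 0.0014) with median-of-ratios scaling. Between gClrBID and M12 the ratio was higher on glucose and lower on cellulose, with no overlap of libraries in either case.

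amyR encodes an activator of amylase genes. Its ratio to creA showed the widest range of the 4 regulators: creA was 1.43 to 1.51 times as abundant as amyR in gClrBID on cellulose and 221 to 291 times on glucose, where amyR stood at 0.882 ± 0.102 FPKM. In M12 creA was 2.26 to 2.94 times as abundant on cellulose and 3.84 to 4.49 times on glucose. brlA encodes a regulator of conidiation, the formation of asexual spores. The ratio of creA to brlA was 4.41 to 5.32 in gClrBID on cellulose and 68.3 to 118 on glucose, and 9.40 to 11.5 in M12 on cellulose and 24.4 to 36.2 on glucose. creA was more abundant than xlnR, amyR and brlA in all 12 libraries of the strains that carry it.

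**Figure D3:**
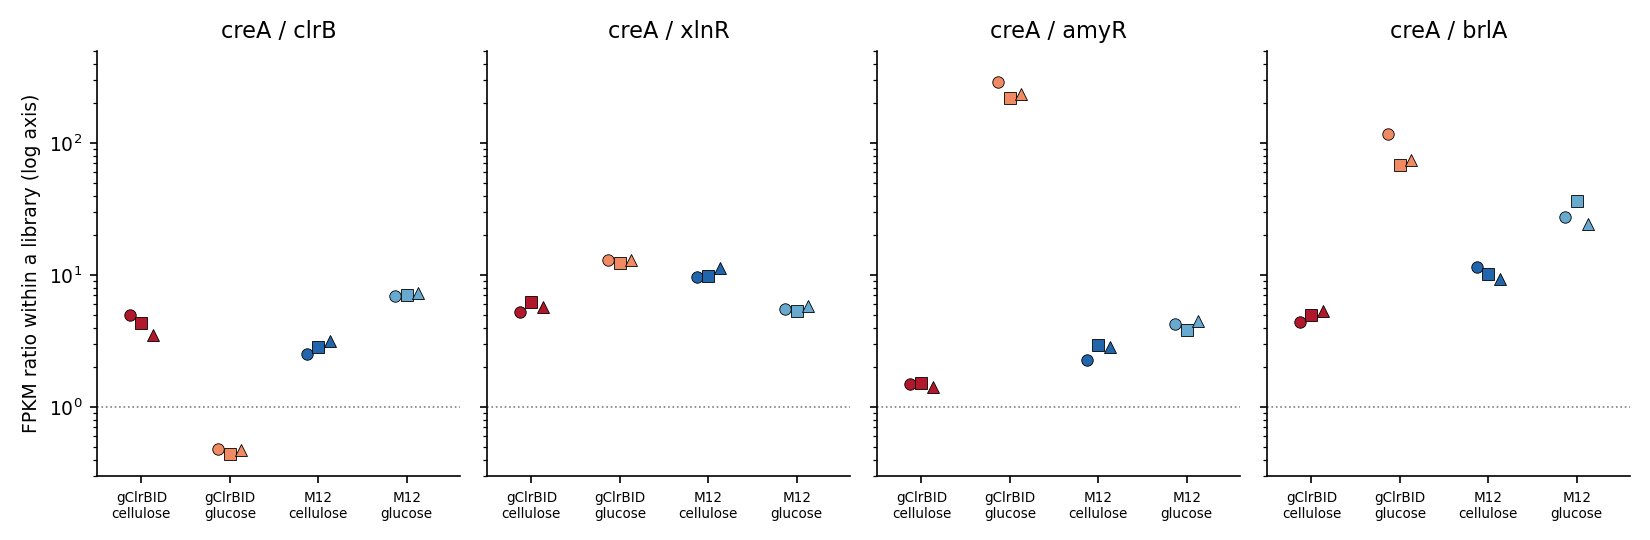
Ratio of creA to clrB, xlnR, amyR and brlA within each of the 12 libraries of gClrBID and M12 (FPKM ratio, log axis; circles, squares and triangles are replicates 1, 2 and 3; the dotted line marks equal levels). The ratio to clrB is below 1 only in gClrBID on glucose (0.438 to 0.481), and the ratio to amyR is highest there (221 to 291).

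The direction of creA was compared with that of 15 other genes known by their locus tags: the 4 regulators above, 5 cellulase genes (cel5B, cel6A, cel7A-2, cel7B, cel61A), 5 genes for other enzymes (bgl2 and PDE_02736 for beta-glucosidases, xyn10A for a xylanase, amy15A and amy13A for starch-degrading enzymes) and the cellodextrin transporter gene cdtC. Their names rest on prior knowledge of the species. In M12 all 15 rose on cellulose, as creA did, against 41.3% of all tested genes. Their median log2 fold change was 4.63, and that of all tested genes -0.02. In gClrBID relative to M12 on glucose, where creA rose, 10 of the 15 were called higher and 4 lower. The shares of all tested genes were 17.0% and 54.7%. The 5 cellulase genes were all called higher, but cel61A stayed near 0, at 0.523 ± 0.229 FPKM in gClrBID and 0.0293 ± 0.0508 in M12 (SD). Among the 4 lower, amy13A was also near 0, at 0.226 ± 0.238 FPKM in gClrBID and 0.953 ± 0.163 in M12 (SD). In gClrBID relative to M12 on cellulose, where creA fell, 13 of the 15 were called higher, against 27.3% of all tested genes, and only clrB lower. creA and clrB were thus the only genes of these 16 that were called lower in gClrBID on cellulose. The log2 fold change of clrB was -1.06 ± 0.11 (SE, limma adjusted p = 6.6e-07). The comparisons share libraries, and over all settings 9 to 11 genes were called higher and 2 to 4 lower on glucose, and 12 or 13 higher and 1 lower on cellulose. The 2 lower on glucose came from centring each library on its median tested gene, which gave 11 higher. The 12 on cellulose came without replicate 2 of M12 on cellulose. On glucose 4 of the 5 cellulase genes were called higher when only the groups compared entered the fit. In that fit cel61A and amy13A did not reach 1 FPKM in 3 libraries and were not tested.

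On cellulose the cellulase genes named above, bgl2, xyn10A, cdtC and brlA shared 1 order of mean FPKM over the 3 strains. They were highest in the creA deletion, then in gClrBID, then in M12. The means of clrB, xlnR, amyR, PDE_02736, amy15A and amy13A did not have this order. How many of all tested genes had it was not counted, and the deletion was not tested against gClrBID. For xyn10A these groups lay close, at 9375 ± 433 FPKM in the deletion and 8499 ± 626 in gClrBID (SD). cel7A-2, a cellobiohydrolase gene, stood at 5541 ± 177 FPKM in gClrBID, 30272 ± 493 in the creA deletion and 1046 ± 57.5 in M12 (SD, n = 3 each). It was also higher in gClrBID than in M12 on glucose, at 6596 ± 214 against 1.93 ± 0.447 FPKM, where creA RNA was higher too. A link between the 2 genes was not tested. amyR on cellulose stood at 207 ± 18.7 FPKM in gClrBID, 64.8 ± 9.84 in the creA deletion and 163 ± 18.2 in M12. brlA stood at 62.3 ± 3.54 FPKM in gClrBID, 317 ± 40.5 in the creA deletion and 42.3 ± 7.51 in M12. xlnR was nearly level between the deletion and M12, at 42.4 ± 1.38 and 42.2 ± 0.929 FPKM, with a log2 difference of 0.01 ± 0.05 (limma adjusted p = 0.88). With median-of-ratios scaling xlnR was called higher in the deletion, by 0.32 ± 0.05 (SE, limma adjusted p = 1.2e-05). clrB stood at 107 ± 5.87 FPKM in the deletion and 153 ± 6.43 in M12, a log2 fold change of -0.50 ± 0.11 (SE, limma adjusted p = 0.00068). With median-of-ratios scaling it was -0.18 ± 0.11 (SE, limma adjusted p = 0.14). Of the 15 genes 11 were called higher and 3 lower (clrB, amyR and PDE_02736) in the creA deletion, against 21.2% and 54.2% of all tested genes. Without replicate 1 of the deletion these were 11 and 2. Median-of-ratios scaling made them 12 and 1, and over all tested genes 3209 higher and 3075 lower, against 1860 and 4751.

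Genes with the pattern of creA were sought over the 12 libraries of gClrBID and M12, among 6812 other genes with a mean of at least 10 FPKM. Likeness was Pearson's r of log2(FPKM + 1). The libraries form 4 groups, so r rests mainly on 4 levels and is given as a description. The median r was -0.192. An r of at least 0.95 was found for 74 genes (1.09%) and one of -0.95 or lower for 200 genes (2.94%). Of the 15 other named genes, cdtC (0.885) and xlnR (0.840) were most like creA and amyR (0.464) least, and none reached 0.95. The files do not pair identifiers with names, so the genes most like creA are known by tag only.

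PDE_07887 had the closest course on the log2(FPKM + 1) scale, with r = 0.992. Its root mean square difference between centred group means was 0.10 log2 units, the smallest of all 6812 genes. The added 1 narrows the fold changes of a gene this low. In FPKM itself PDE_07887 rose by a larger factor than creA from glucose to cellulose in M12. It stood at 13.5 ± 1.49 FPKM in gClrBID on cellulose and 9.64 ± 0.472 on glucose, and at 17.7 ± 0.562 in M12 on cellulose and 1.95 ± 0.329 on glucose (SD, n = 3 each). Only its cellulose groups averaged above 10 FPKM, the limit set on the mean of the 12 libraries. PDE_07340 had the same r of 0.992 with a much smaller range, 106 ± 1.8 and 100 ± 0.870 FPKM in gClrBID on cellulose and glucose, and 116 ± 2.31 and 78.5 ± 2.73 in M12. With median-of-ratios scaling its r was 0.937 and that of PDE_07887 was 0.994, and only PDE_07887 remained among the 2 most alike. The most opposite genes on the values as deposited were PDE_06683 (r = -0.993) and PDE_09478 (r = -0.992), which were highest in M12 on glucose, at 119 ± 6.48 and 113 ± 5.30 FPKM. In M12 on cellulose they stood at 9.16 ± 1.21 and 2.20 ± 0.339 FPKM. With median-of-ratios scaling PDE_06683 had an r of -0.993 and PDE_09478 one of -0.984, and neither was among the 2 most opposite genes.

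**Figure D4:**
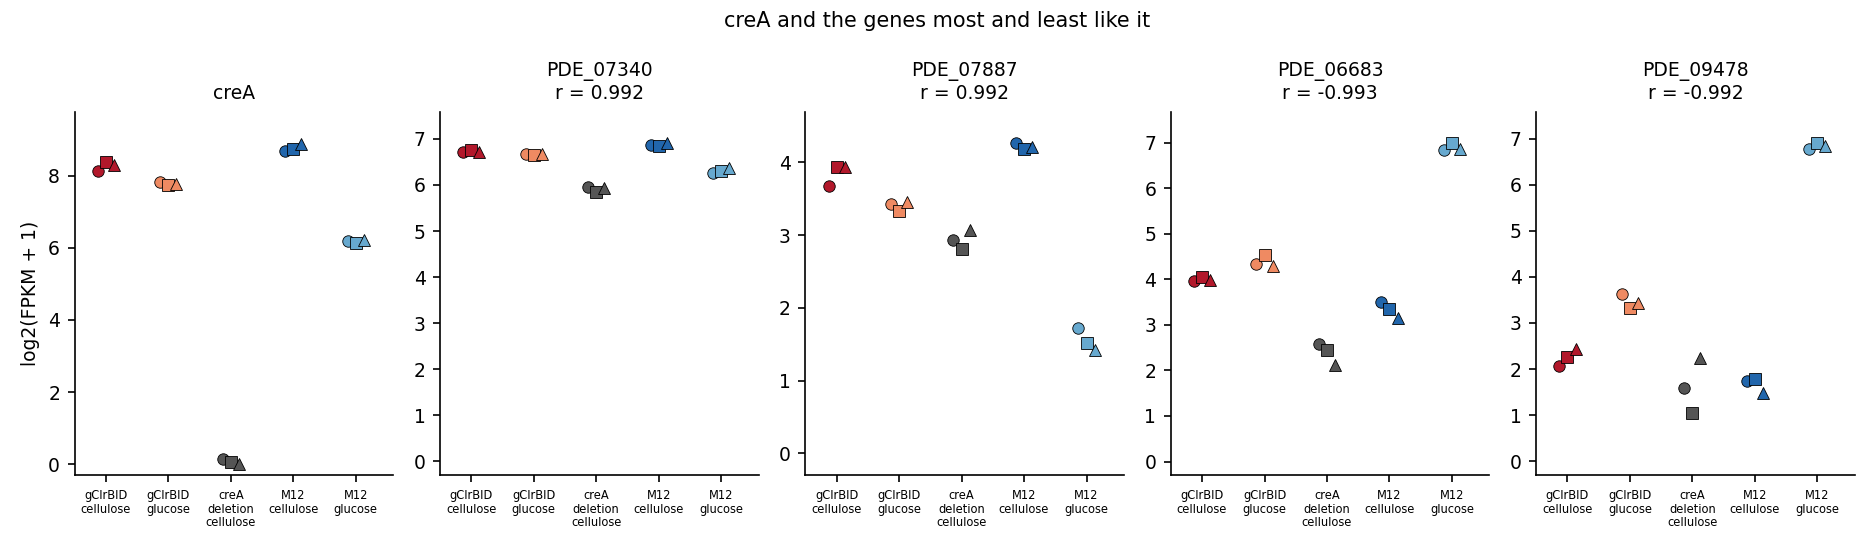
creA and the 2 genes most like it and 2 most unlike it, as log2(FPKM + 1) in each of the 15 libraries (circles, squares and triangles are replicates 1, 2 and 3). The likeness r used the 12 libraries of gClrBID and M12. PDE_07887 is at 17.7 FPKM in M12 on cellulose and 1.95 FPKM in M12 on glucose, with the gClrBID groups between them as for creA, and at 6.70 FPKM in the creA deletion.

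The creA deletion libraries were not used to find these genes. PDE_07887 stood at 6.70 ± 0.706 FPKM there, below M12 on cellulose by a log2 fold change of -1.28 ± 0.10 (SE, n = 3 per group, limma adjusted p = 1.2e-08). PDE_07340 stood at 59.3 ± 2.31 FPKM, lower by -0.96 ± 0.04 (limma adjusted p = 9.2e-12). A fall of this size was not limited to genes like creA. The opposite gene PDE_06683 had a log2 fold change of -0.95 ± 0.11 (limma adjusted p = 1.2e-06). PDE_09478 had one of -0.05 ± 0.21 (limma adjusted p = 0.84). Of the 74 genes most like creA, 55 (74.3%) were called lower and 6 higher in the deletion, with a median log2 fold change of -0.79. Among all 6812 genes compared 58.9% were called lower, with a median of -0.30. With median-of-ratios scaling 48 of the 74 (64.9%) were called lower and 18 (24.3%) higher, against 37.9% and 39.0% of all genes compared, with a median of -0.47 against 0.01 for all genes compared. Of the 200 genes with an r of -0.95 or lower, 39.5% were called lower and 29.0% higher, with a median of -0.06. With median-of-ratios scaling 19.5% of them were called lower and 57.5% higher, with a median of 0.24. The M12 cellulose libraries entered both the likeness and this comparison, and the threshold of 0.95 was set with values in view. These counts therefore only describe the lists.

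As deposited, 198 of the tested genes (2.26%), creA among them, had the order of creA over the 4 groups without overlap between neighbours. The reverse order was shown by 451 (5.15%). Relative to the median tested gene of its library creA lost this separation. Its gClrBID libraries stood at 3.27 to 3.50 log2 units on cellulose and at 3.21 to 3.29 on glucose, which overlap. Neither count was made under another scaling. None of the 15 other named genes showed the order of creA. In the deletion strain creA was the gene with the lowest fold change of all 8765 tested, and the next had a log2 fold change of -4.55. There were 6697 genes with a mean of at least 10 FPKM in M12 on cellulose. Of these, only creA had 3 fragments or fewer over the 3 deletion libraries. That limit equals the total of creA itself, so creA meets it in any case. Of the same 6697 genes 7, creA among them, averaged below 1 FPKM in the deletion.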

How the data were processed

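Stranded mRNA libraries of mycelia were sequenced, per the labels' protocols, and the authors deposited 1 table of FPKM values with a column per library, named by the sample titles. The submitters' processing notes list CASAVA 1.8, HISAT2 2.0.0, featureCounts 1.5.0-p1 and also DESeq2, without their roles. Build, annotation and strand handling are not given in the sources used here, so overlapping or near-identical genes could not be assessed. Of the 9976 identifiers 0 matched the RefSeq gene table of strain HP7-1 (assembly ASM172317v3). The identity of creA was checked against the signal of the deletion mutant, and the other 15 names rest on prior knowledge. No sequence or genome position was used here.

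Whole fragments were worked back from the FPKM values (tolerance 5e-05 FPKM) for all 9789 genes above 0, with gene models searched among multiples of 3 bases. The test was limma 3.58.1 (R 4.3.3) on log2(FPKM + 1), with 1 mean per group over 15 libraries, 8 contrasts, an intensity trend and Benjamini-Hochberg adjustment over the 8765 genes with at least 1 FPKM in 3 libraries. Such fold changes understate those of genes near 0. A gene is called at an adjusted p under 0.05. Alternatives were a pseudocount of 0.1, no filter, 3 other scalings, no trend, only the groups compared, a replicate block, voom weights on the fragments and leaving out each library. The gene, the lists and the tests were chosen with earlier results of these data known. The rule for named genes took creA, the 15 tags, the 2 highest and 2 lowest r with creA, the 3 tags on either side of creA by number, and genes silent in the deletion.

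Same-numbered replicates of different groups did not deviate together: over 30 pairs the correlation of their deviations from the group means had a median of -0.01 (-0.10 to 0.09), so the numbers were not taken as pairs.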

Additional observations from a re-analysis of the deposited data

Results flagged for a closer look

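The effect of gClrBID on creA differed between the carbon sources by the interaction term of the limma fit. The interaction was -2.10 ± 0.09 (log2, SE, n = 3 per group, limma adjusted p = 2.2e-11). creA averaged 306 FPKM in gClrBID against 434 FPKM in M12 on cellulose, and 218 FPKM in gClrBID against 71.3 FPKM in M12 on glucose. All 3 gClrBID libraries lay below all 3 M12 libraries on cellulose and above all 3 on glucose. How many other genes separate in this way was not counted. Of all tested genes 32.1% were called lower on cellulose and 17.0% higher on glucose. In gClrBID clrB moved along, at 73.7 ± 16.5 FPKM against 153 ± 6.43 in M12 on cellulose and at 469 ± 16.4 against 10.1 ± 0.345 on glucose (SD, n = 3 each), and its part in the result was not tested.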

How the results depend on the processing

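In 7 of the 8 comparisons creA kept its direction and its call under all 10 alternative settings. The exception was its carbon response within gClrBID, 0.48 on the values as deposited and 0.13 when each library was centred on its median tested gene (adjusted p = 0.068); the cause was not tested. All 8 kept direction and call in 15 fits that left out 1 library each. With the replicate block the interaction was -2.10 ± 0.10, the effect of gClrBID 1.60 on glucose and -0.50 on cellulose, and the block changed no call of creA. The fitted loss of creA in the deletion ran from -12.84 with voom weights to -8.44, because both the pseudocount and the prior set a value near 0, so the fragment ratio is the better measure. All 200 total counts of called genes over the alternatives were within 1.5 times those on the values as deposited, but counts by direction moved further with the scaling in 3 comparisons. For gClrBID against M12 on glucose they were 1493 higher and 4797 lower as deposited, 2979 and 2912 with median-of-ratios scaling, 3001 and 2826 with voom weights on top of it, and 3420 and 2549 centred on the library median. For the deletion against M12 they were 1860 and 4751 as deposited, and under the same 3 settings 3209 and 3075, 3232 and 3089, and 2931 and 3313. For the interaction they were 4208 and 1764 as deposited, and 2506 and 2998 centred on the library median. Depth limits the values of the deletion strain, where 3 fragments in all carry the creA level, and the low amyR level in gClrBID on glucose.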

Other observations

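The 3 tags numbered just below and the 3 just above creA were all measured, although whether they neighbour creA in the genome was not given in the sources used here. In the deletion strain relative to M12 on cellulose their log2 fold changes lay between -0.36 and 1.69. Of the 6, 2 were called higher, 1 lower and 3 neither, where 21.2% of all tested genes were called higher and 54.2% lower. The tag directly below creA, singled out after its values were seen, moved most. It stood at 57.9 ± 2.52 FPKM in the creA deletion against 17.3 ± 2.66 in M12 (SD, n = 3 each), a log2 fold change of 1.69 ± 0.18 (SE, limma adjusted p = 4.4e-07). The same tag was higher in gClrBID than in M12 on glucose by 5.66 (limma adjusted p = 1.4e-13) and higher on cellulose than on glucose in M12 by 3.24 (limma adjusted p = 6.1e-11). It was lower on cellulose than on glucose in gClrBID by a log2 fold change of -2.09 (limma adjusted p = 1.9e-08), where creA was higher. Between gClrBID and M12 on cellulose, where creA fell, its log2 fold change was 0.33 (limma adjusted p = 0.13). The tag directly above fell by 0.36 ± 0.05 in the deletion (limma adjusted p = 1.5e-05), a size close to the -0.28 that was the median of all tested genes.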
